A study of Mus musculus with 10 samples.

Results

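The 46 genes described here encode the DNA replication machinery and the S-phase programme of dividing cells. They were chosen by symbol from the roles of their products, with earlier results of these data known. All 46 were found among the 55291 genes of the deposited table, and all 46 were among the 17015 genes that passed the filter on low counts. They fall into 7 roles: 5 genes of origin recognition and licensing, 12 of the replicative helicase, 8 of the polymerases, primase and single-strand binding, 8 of the clamp, clamp loader and lagging-strand joining, 5 of nucleotide supply, 4 of the chromatin behind the fork and 4 E2F factors.

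Bulk RNA was sequenced from the livers of 10 female mice in 4 groups, with 2 livers in each vehicle group (NTC-Veh and sgBap1-Veh) and 3 in each injured group (NTC-CCl4 and sgBap1-CCl4), to ask how loss of the deubiquitinase Bap1 in hepatocytes alters the liver and its response to damage. All mice were Cas9 Lox-Stop-Lox animals aged 16 to 20 weeks, in which Cas9 stays off until Cre removes the stop, and all received an AAV8 virus that carried a guide RNA together with Cre under the Tbg promoter, which drives expression in hepatocytes. The guide was either a non-targeting control (NTC) or 1 guide against Bap1 (sgBap1), so the genotype rests on a single guide, and cells other than hepatocytes were not its target. After 10 days the mice were injected intraperitoneally with carbon tetrachloride (CCl4) in olive oil, a toxin that kills hepatocytes around the central veins, or with olive oil alone (Veh), and livers were taken after 48 h.

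Quiescent hepatocytes divide when the liver is injured. Origins are licensed in G1 when ORC, CDC6 and CDT1 load the MCM2-7 ring onto DNA; at the start of S phase CDC45 and GINS turn the ring into the active helicase, polymerases copy both strands, and PCNA, loaded by the RFC complex, holds them on the template. Most of these genes are transcribed under the control of E2F factors, of which E2F1 and E2F2 are activators and E2F7 and E2F8 are repressors made in S phase. Values are given as CPM, the counts of a gene scaled to a common normalized library size. Fold changes, standard errors (SE) and two-sided p-values come from edgeR's quasi-likelihood test in 1 model of the 4 groups, with p adjusted by Benjamini-Hochberg over the 17015 genes, and a gene was called changed at an adjusted p under 0.05.

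E2F factors bind a short motif near the start of their target genes, and the promoters of 4 genes of the origin, the helicase and nucleotide supply are shown to let its letters be seen beside the changes below. The windows run from 250 bases before to 50 after the start in RefSeq (GRCm38.p6). Capitals mark each match to the E2F motif, searched on both strands as TTTCCCGC, TTTCGCGC, TTTGCCGC or TTTGGCGC. The window of Mcm5 is chr8:75109259-75109558 (+ strand), that of Cdc6 chr11:98907901-98908200 (+ strand), that of Mcm6 chr1:128359656-128359955 (- strand) and that of Rrm2 chr12:24708004-24708303 (+ strand), and each is written 5′ to 3′ on the strand of its gene.
Mcm5: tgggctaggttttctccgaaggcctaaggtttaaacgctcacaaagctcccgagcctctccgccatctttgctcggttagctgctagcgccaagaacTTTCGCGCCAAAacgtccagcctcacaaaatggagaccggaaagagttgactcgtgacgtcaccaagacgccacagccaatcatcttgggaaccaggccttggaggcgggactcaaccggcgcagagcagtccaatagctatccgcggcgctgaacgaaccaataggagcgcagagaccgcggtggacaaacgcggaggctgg
Cdc6: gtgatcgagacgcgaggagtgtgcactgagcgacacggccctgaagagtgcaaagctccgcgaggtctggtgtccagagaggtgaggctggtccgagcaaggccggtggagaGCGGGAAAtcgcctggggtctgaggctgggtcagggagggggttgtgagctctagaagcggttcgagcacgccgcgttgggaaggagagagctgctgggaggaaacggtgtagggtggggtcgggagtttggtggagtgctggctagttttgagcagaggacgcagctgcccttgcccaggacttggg
Mcm6: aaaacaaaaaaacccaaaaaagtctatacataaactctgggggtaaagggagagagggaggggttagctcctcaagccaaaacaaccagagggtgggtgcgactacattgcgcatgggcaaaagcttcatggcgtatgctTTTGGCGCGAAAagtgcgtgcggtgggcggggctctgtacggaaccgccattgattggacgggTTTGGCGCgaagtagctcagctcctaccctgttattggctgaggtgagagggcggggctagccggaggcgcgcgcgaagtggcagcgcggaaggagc
Rrm2: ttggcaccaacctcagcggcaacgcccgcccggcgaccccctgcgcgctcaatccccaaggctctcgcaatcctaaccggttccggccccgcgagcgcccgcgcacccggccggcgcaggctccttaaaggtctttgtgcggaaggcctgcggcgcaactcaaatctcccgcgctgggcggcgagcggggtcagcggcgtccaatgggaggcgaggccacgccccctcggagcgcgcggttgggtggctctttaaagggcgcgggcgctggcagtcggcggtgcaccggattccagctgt
In Mcm5 the capitals are 2 overlapping matches on opposite strands, centred at -149.5 and -145.5 bases from the start. Cdc6 held 1 match, at -134.5 bases from the RefSeq start, which is also the start of a GENCODE vM21 transcript but lies 350 bases inside the gene as GENCODE bounds it. Mcm6 held 3, of which 2 overlap, and its window was added after its matches were seen. The window of Rrm2 held no match of these letters.

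Of the 46 genes, 38 had at least 1 promoter window, with 46 windows in all. The start of 41 windows lay within 100 bases of a GENCODE transcript start, among them 16 of the 17 windows with an E2F match, the other being that of E2f2, 120 bases before one. By the outermost start of the gene, however, 11 windows of 8 genes lay wholly inside it, 5 of them with a match (Cdc6, Dnmt1, Lig1, Mcm7 and Uhrf1). The single window of E2f1 is one of the 11 and starts 294 bases from any GENCODE transcript start, so it tells nothing of the E2f1 promoter. An E2F match was present for 17 of the 38 (44.7%), against 2.60% of the 27025 genes with a window. The CCAAT box (CCAAT, searched on both strands) was present for 24 of the 38 (63.2%), against 41.1% of all genes. The CHR element (TTTGAA, searched on both strands), which is known from genes of the late cell cycle, was present for 7 of the 38 (18.4%), against 20.2% of all genes. The 17 genes held 24 E2F matches, centred from -215.5 to 42.5 bases from the start, and 14 of the 24 lay within 100 bases of it. Every one of the 17 was called higher with CCl4 in both genotypes, as were 16 of the other 21 genes with a window. The windows of Mcm10, Tk1, E2f8, Pola2 and Dut, which were not called higher in both, held none. That of Dut is among the 11 inside a gene. That of Mcm10 ends in TTTGGCG, so a match to TTTGGCGC that crosses its end would not be seen. Gmnn and Gins4, also not called higher in both, had no window. A match is a description of letters, and binding was not measured.

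**Figure D1:**
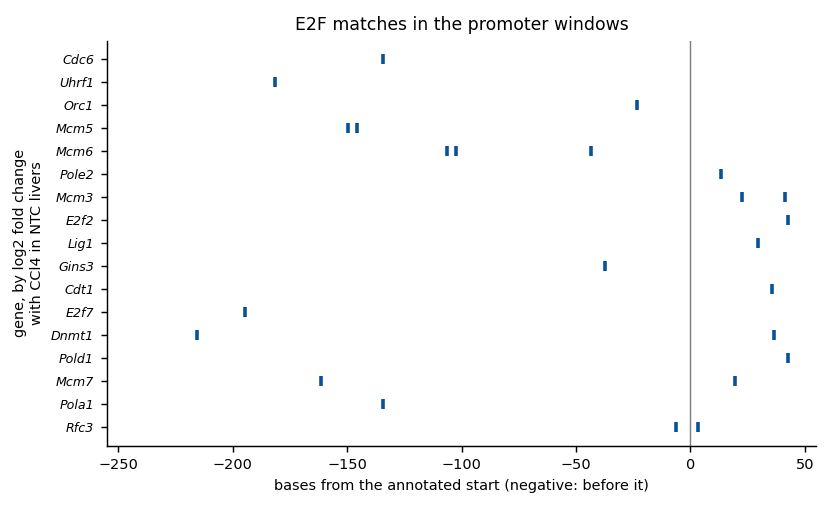
Each tick is the centre of 1 E2F match in the promoter window of a gene, plotted by its distance in bases from the RefSeq start of that window, with the 17 genes in order of their log2 fold change with CCl4 in NTC livers. The matches of Orc1, Mcm6, Gins3 and Rfc3 include ones close to the start, those of Cdc6, Uhrf1, Mcm5 and E2f7 lie further before it, and those of Mcm3, Lig1, Cdt1 and E2f2 lie after it.

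The total estimated count per liver was 3.30e+07 to 5.22e+07, and the floor of 3 counts was worth 0.0511 to 0.112 CPM. Floors and counting intervals take in counting error alone. Bap1 measured 29.5 to 34.8 CPM in the 5 NTC livers and 17.0 to 21.8 in the 5 sgBap1 livers. The 9 hepatocyte markers summed to 137040 to 163820 CPM in NTC-Veh and 125810 to 127340 in sgBap1-Veh livers, and none was at 0. With CCl4 they summed to 101810 to 110620 CPM in NTC and 91458 to 115510 in sgBap1 livers, below every vehicle liver. Of the 9, 5 were called lower and 0 higher with CCl4 in NTC livers, where 26.6% of all genes were lower. In sgBap1 livers 3 were lower and 1 higher, where 28.0% of all genes were lower. The 11 macrophage markers summed to 193 to 284 CPM with NTC and 393 to 540.1 with sgBap1 under vehicle, and with CCl4 to 964 to 1349 and 920.2 to 1239. The 4 fat cell markers summed to 233 CPM in sgBap1-CCl4 replicate 2 and to at most 0.0638 in the other 9 livers, and counts with CCl4 in sgBap1 livers are also given without that liver. In bulk samples, more dividing cells and more RNA per cell cannot be told apart, and neither can the cell types behind the RNA. With CCl4 in NTC livers, 8 of 11 macrophage, 5 of 7 stellate and 3 of 6 endothelial markers were called higher (27.4% of all genes). So were 3 of 8 lymphocyte, 2 of 5 cholangiocyte, 2 of 3 neutrophil and 2 of 4 erythroid ones, and 1 erythroid one was lower. In sgBap1 livers 7, 4, 3, 0, 2, 2 and 0 were higher (29.0%), and 2 macrophage, 2 endothelial and 1 erythroid ones lower. The part of any cell type was not tested.

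CCl4 raised most of the replication programme in NTC livers. Of the 46 genes, 40 were higher, where 27.4% of all genes tested were, and Mcm10 alone was lower, where 26.6% of all genes were. The median log2 fold change was 1.92, or 3.77-fold, against 0.03 over all genes tested. Gmnn, Gins4, Pola2, Tk1 and E2f8 did not pass the threshold. In 42 of the 46 each NTC-CCl4 liver lay above both NTC-Veh livers, where this held for 36.7% of all genes. The largest changes were those of Cdc6, Uhrf1 and Orc1 and the lowest values those of Mcm10, Tk1 and E2f8.

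In sgBap1 livers CCl4 likewise raised 40 of the 46 (29.0% of all genes were higher) and lowered Mcm10 and Tk1 (28.0% of all genes were lower). The median log2 fold change was 1.76, or 3.38-fold, against 0.04 over all genes tested, and in 42 genes the CCl4 livers lay above the vehicle livers, as in 37.3% of all genes. Gmnn, Gins4, Pola2 and Dut did not pass the threshold. Without the liver with fat cell markers 40 were again higher. The comparisons in the 2 genotypes share no liver, and 39 genes were called higher in both, Dut in NTC livers alone and E2f8 in sgBap1 livers alone, while Mcm10 was lower in both. With library size in place of TMM, which called 50% of all genes higher and 12.1% lower in NTC livers and 50.6% and 14.0% in sgBap1 livers, the median of all genes moved to 0.50 in NTC and 0.52 in sgBap1 livers, and those of the 46 genes to 2.39 and 2.23, so changes below are relative to the TMM scale.

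**Figure D2:**
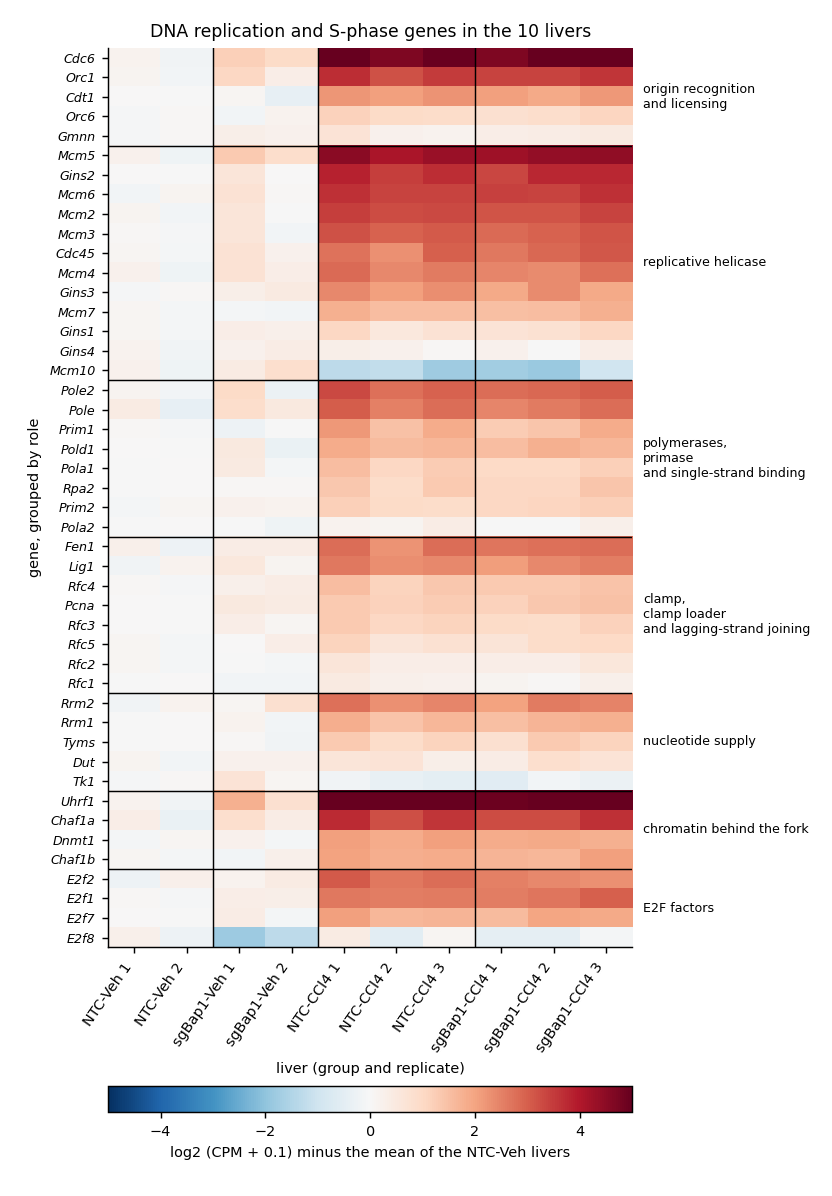
Colour gives log2 (CPM + 0.1) of each of the 46 genes in each of the 10 livers minus the mean of the 2 NTC-Veh livers, with red for higher and blue for lower, and colours do not change further beyond 5. Genes are grouped by role and, within a role, ordered by the log2 fold change with CCl4 in NTC livers. The 6 CCl4 livers are red in all but a few genes, Mcm10 is blue in them, and E2f8 is blue in both sgBap1-Veh livers.

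Among the 5 genes of origin recognition and licensing, Orc1, Orc6, Cdc6 and Cdt1 rose with CCl4 in both genotypes. Cdc6, which loads the MCM ring together with ORC, measured 0.136 and 0.0831 CPM in NTC-Veh, 0.377 and 0.299 in the sgBap1-Veh pair, 7.57, 5.20 and 6.25 in NTC-CCl4 and 5.16, 6.38 and 7.44 in sgBap1-CCl4 livers. The 6 CCl4 livers lay far above the 4 vehicle livers. On the log2 scale it rose by 5.81 (SE 0.37, adjusted p = 2.2e-06) in NTC and 4.19 (SE 0.31, adjusted p = 3.6e-06) in sgBap1 livers. The vehicle side rests on few counts, 8 for NTC and 22 for sgBap1 over both livers, against 872 and 1026 over the CCl4 livers. From these counts the ratio was 57.3 (95% exact counting interval 28.9 to 133.1) in NTC and 18.1 (11.9 to 29.1) in sgBap1 livers, and 3.93% of the 50-base stretches of Cdc6 are shared with another gene. Orc1, the largest subunit of the origin recognition complex, had 0.0545 and 0.0277 CPM in NTC-Veh, 0.188 and 0.0749 in the sgBap1-Veh pair, 1.73, 1.16 and 1.48 in NTC-CCl4 and 1.35, 1.35 and 1.55 in sgBap1-CCl4 livers. Vehicle and CCl4 livers did not overlap, and its log2 fold change was 5.05 (SE 0.48, adjusted p = 1.01e-05) in NTC and 3.31 (SE 0.39, adjusted p = 3.72e-05) in sgBap1 livers. With 3 counts in the NTC-Veh and 9 in the sgBap1-Veh livers, the ratio of counts was 35.0 (11.8 to 171) in NTC and 9.99 (5.17 to 22.1) in sgBap1 livers.

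Cdt1, the licensing factor that geminin inhibits, measured 3.54 and 3.52 CPM in NTC-Veh, 3.74 and 2.66 in the sgBap1-Veh pair, 16.7, 14.8 and 17.3 in NTC-CCl4 and 14.8, 13.4 and 16.3 in sgBap1-CCl4 livers. Its log2 fold change was 2.20 in both genotypes (SE 0.16, adjusted p = 3.67e-06 in NTC and 3.61e-06 in sgBap1), and the groups by treatment did not overlap. Gmnn, which encodes geminin, stayed much closer to its vehicle level, with 5.88 and 6.26 CPM in NTC-Veh, 7.45 and 7.15 in the sgBap1-Veh pair, 9.93, 7.04 and 6.90 in NTC-CCl4 and 7.65, 7.93 and 8.40 in sgBap1-CCl4 livers. Its log2 fold change was 0.39 (SE 0.17, adjusted p = 0.0695) in NTC and 0.13 (SE 0.16, adjusted p = 0.529) in sgBap1 livers. The NTC value passed the threshold without NTC-CCl4 replicate 2 (adjusted p = 0.0467) or replicate 3 (adjusted p = 0.0426), and both passed with library size alone (0.86 and 0.61). Orc6, a further subunit of the origin complex, changed by 1.03 in NTC and 0.90 in sgBap1 livers on the log2 scale.

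Of the 12 helicase genes 10 were higher in each genotype, and their log2 fold changes had medians of 2.75 (NTC) and 2.22 (sgBap1). All 6 subunits of the MCM2-7 ring, which unwinds the template ahead of the polymerases, rose in both. Mcm5 measured 2.15 and 1.55 CPM in NTC-Veh, 4.68 and 3.41 in the sgBap1-Veh pair, 43.8, 32.3 and 38.3 in NTC-CCl4 and 35.8, 40.5 and 41.8 in sgBap1-CCl4 livers. Each sgBap1-Veh liver lay above each NTC-Veh liver, and all CCl4 livers above both. Its log2 fold change was 4.36 (SE 0.21, adjusted p = 7.41e-07) in NTC and 3.27 (SE 0.20, adjusted p = 1.3e-06) in sgBap1 livers, the largest of the 6 in each genotype. Mcm6 had 5.20 and 6.35 CPM in NTC-Veh, 9.63 and 5.99 in the sgBap1-Veh pair, 73.6, 60.0 and 60.6 in NTC-CCl4 and 63.2, 60.9 and 73.3 in sgBap1-CCl4 livers. Mcm2 had 3.51 and 2.88 in NTC-Veh, 4.92 and 3.14 in the sgBap1-Veh pair, 35.6, 31.1 and 32.6 in NTC-CCl4 and 29.3, 28.6 and 33.6 CPM in sgBap1-CCl4 livers. For both genes the vehicle genotypes overlapped while the treatments were far apart. The log2 fold changes were 3.49 (NTC) and 3.06 (sgBap1) for Mcm6 and 3.37 (NTC) and 2.90 (sgBap1) for Mcm2, with SEs of 0.18 to 0.21. Mcm7 changed least of the 6, by 1.63 in NTC and 1.74 in sgBap1 livers, and 18.1% of its 50-base stretches are shared, most with Gm5487, so part of its reads could belong elsewhere.

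Divided by the exon length of each gene in GENCODE vM21, the highest and lowest of the 6 ring subunits lay closer together after CCl4. This rests largely on Mcm7, of whose 50-base stretches 18.1% are shared. In the 4 vehicle livers Mcm7 had the highest level and the highest subunit exceeded the lowest by 4.02 to 7.38 times. In the 6 CCl4 livers Mcm6 was the highest and Mcm2 the lowest, and they differed by 2.77 to 3.25 times. Without Mcm7 the spread was of similar size with both treatments. Group means of the other subunits ran from 0.460 (Mcm2) to 1.34 (Mcm4) CPM per kb in NTC-Veh livers. In NTC-CCl4 livers they ran from 4.76 (Mcm2) to 13.9 (Mcm6). The level of Mcm6 was 1.24 ± 0.174 CPM per kb in NTC-Veh (SD, n = 2) and 13.9 ± 1.65 in NTC-CCl4 livers (SD, n = 3), and that of Mcm7 3.06 ± 0.265 and 9.45 ± 0.816. Levels of Mcm3, Mcm4, Mcm5 and Mcm7 in NTC-CCl4 livers were 9.80 ± 0.709, 8.36 ± 1.33, 9.54 ± 1.44 and 9.45 ± 0.816 CPM per kb (SD, n = 3). Within a liver, Mcm4 was the lowest of these 4 in each of the 6 CCl4 livers, while the order of the other three changed from liver to liver. These are descriptions, since length alone does not remove all differences in how genes are counted.

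**Figure D3:**
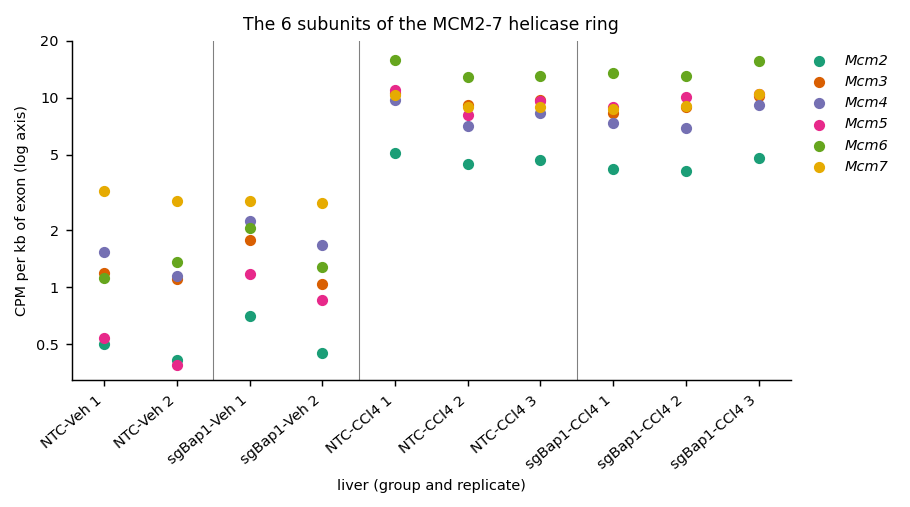
Points give the CPM per kb of exon (log axis) of the 6 MCM2-7 subunits in each liver. In the vehicle livers the subunits spread by 4.02 to 7.38 times with Mcm7 on top, and in the CCl4 livers by 2.77 to 3.25 times with Mcm6 on top and Mcm2 at the bottom. The wider spread in the vehicle livers rests largely on Mcm7.

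The partners of the ring did not move alike. Cdc45, Gins1, Gins2 and Gins3 rose in both genotypes, with log2 fold changes in NTC livers of 2.85 for Cdc45, 0.78 for Gins1, 3.91 for Gins2 and 2.42 for Gins3. The rise of Gins1 was lost without NTC-Veh replicate 2 in NTC livers (adjusted p = 0.0531), and in sgBap1 livers without either vehicle liver or without sgBap1-CCl4 replicate 3 (adjusted p = 0.0923, 0.136 and 0.0956). Gins4 measured 11.2 and 8.84 CPM in NTC-Veh, 11.5 and 13.1 in the sgBap1-Veh pair, 12.3, 11.7 and 10.5 in NTC-CCl4 and 11.7, 9.83 and 12.5 in sgBap1-CCl4 livers, and all groups overlapped except the vehicle pair. Its log2 fold change was 0.19 (SE 0.15) in NTC and -0.12 (SE 0.15) in sgBap1 livers. With library size alone it was called higher in both, at 0.67 (adjusted p = 0.000851) and 0.36 (adjusted p = 0.0257). Per kb of exon, Gins4 exceeded the lowest of the 4 GINS genes by 44.9 to 81.5 times in vehicle livers and by 5.44 to 9.68 times in CCl4 livers. Exons of Gins2 overlap Gse1 on the other strand over 2758 bases, and reads of the 2 could be mixed if the counting did not use strand. Such an overlap of exons with a gene on the other strand was present for 15 of the 46 genes.

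Mcm10, which links the helicase to polymerase alpha and helps to fire origins, went the other way. It measured 42.7 and 31.5 CPM in NTC-Veh, 49.2 and 65.9 in the sgBap1-Veh pair, 14.9, 15.7 and 10.7 in NTC-CCl4 and 10.9, 10.2 and 18.4 in sgBap1-CCl4 livers. All CCl4 livers lay below all vehicle livers, and both sgBap1-Veh livers above both NTC-Veh livers. The log2 fold change with CCl4 was -1.43 (SE 0.28, adjusted p = 0.0024) in NTC and -2.13 (SE 0.28, adjusted p = 0.000229) in sgBap1 livers. With library size alone these were -0.95 and -1.66. Exons of Mcm10 overlap no other annotated gene, and none of its 50-base stretches is shared with one.

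Of the 8 polymerase, primase and single-strand binding genes, 7 rose in each genotype. Pola1, the catalytic subunit of polymerase alpha, measured 4.74 and 4.93 CPM in NTC-Veh, 6.67 and 4.53 in the sgBap1-Veh pair, 14.2, 10.1 and 11.7 in NTC-CCl4 and 9.72, 9.74 and 11.3 in sgBap1-CCl4 livers. Pole, the catalytic subunit of the leading-strand polymerase epsilon, had 2.34 and 1.30 in NTC-Veh, 3.31 and 2.47 in the sgBap1-Veh pair, 15.1, 10.4 and 12.7 in NTC-CCl4 and 9.91, 11.2 and 12.8 CPM in sgBap1-CCl4 livers. Neither gene overlapped between treatments. For Pola1 the log2 fold change was 1.31 (SE 0.19, adjusted p = 0.000265) in NTC and 0.86 (SE 0.19, adjusted p = 0.00318) in sgBap1 livers, and that of Pole was 2.80 (SE 0.27) and 1.95 (SE 0.25). Pole2, its accessory subunit, had the largest NTC value of the role at 3.32 (SE 0.36), but 8.16% of its 50-base stretches are shared with Gm49384 on the same strand. Prim1, Prim2, Pold1 and Rpa2 changed by 1.88, 1.05, 1.73 and 1.21 in NTC livers on the log2 scale. Pola2, the regulatory subunit of polymerase alpha, was at 9.56 and 10.1 CPM in NTC-Veh and 11.1, 10.9 and 12.7 in NTC-CCl4 livers, which differed by 0.24 on the log2 scale (SE 0.13, adjusted p = 0.153). With library size alone Pola2 was called higher in NTC (0.71, adjusted p = 0.00135) and sgBap1 livers (0.67, adjusted p = 0.00181). Per kb of exon, Pola2 was the highest of the 4 subunits of the polymerase alpha and primase complex in every vehicle liver and Prim1 the highest in every CCl4 liver.

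All 8 genes of the clamp, clamp loader and lagging-strand joining rose in both genotypes. Pcna, the sliding clamp, measured 27.2 and 25.9 CPM in NTC-Veh, 37.1 and 35.1 in the sgBap1-Veh pair, 66.2, 59.3 and 64.5 in NTC-CCl4 and 59.6, 68.3 and 74.1 in sgBap1-CCl4 livers. The vehicle groups did not overlap, and the CCl4 groups did. The clamp gene rose by 1.25 on the log2 scale (SE 0.10, adjusted p = 7.27e-06) in NTC and 0.90 (SE 0.10, adjusted p = 4.63e-05) in sgBap1 livers, and 19.1% of its 50-base stretches are shared, most with Pcna-ps2. The flap nuclease gene Fen1 (2.64 in NTC, 2.38 in sgBap1) and the ligase gene Lig1 (2.48 and 2.04) had the largest log2 fold changes of the role. Exons of Fen1 overlap genes on the other strand over 2039 bases. Rfc1, the large subunit of the clamp loader, had 24.1 and 24.9 CPM in NTC-Veh, 22.3 and 22.0 in the sgBap1-Veh pair, 33.8, 29.3 and 28.2 in NTC-CCl4 and 27.3, 25.2 and 29.0 in sgBap1-CCl4 livers, which kept the treatments apart by a small margin. Its log2 fold change, 0.31 (SE 0.10, adjusted p = 0.0220) in NTC and 0.29 (SE 0.10, adjusted p = 0.0285) in sgBap1 livers, was the smallest of the called rises. It missed the threshold in NTC livers without NTC-Veh replicate 1, NTC-Veh replicate 2 or NTC-CCl4 replicate 1 (adjusted p = 0.113, 0.0739 and 0.0744). In sgBap1 livers it did so without either sgBap1-Veh liver or without sgBap1-CCl4 replicate 1 or 3 (adjusted p = 0.0937, 0.113, 0.0612 and 0.0915). The other loader genes Rfc2, Rfc3, Rfc4 and Rfc5 changed by 0.42, 1.18, 1.38 and 0.86 in NTC livers, and per kb of exon the 5 subunits spread by 2.19 to 3.19 times in vehicle and by 1.60 to 1.82 times in CCl4 livers. On the other strand, Lat2 overlaps 952 bases of Rfc2 exon, Eif4a2 194 of Rfc4 and Wsb2 499 of Rfc5. The call of Rfc2 was lost without NTC-Veh replicate 2 (adjusted p = 0.103) in NTC and without sgBap1-Veh replicate 2 (adjusted p = 0.0532) in sgBap1 livers, and that of Rfc5 in sgBap1 livers without sgBap1-Veh replicate 1 (adjusted p = 0.0752).

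Nucleotide supply split by gene. Rrm1 and Rrm2 encode the large and small subunits of ribonucleotide reductase, which makes deoxyribonucleotides. Rrm2 measured 5.01 and 6.35 CPM in NTC-Veh, 5.97 and 9.88 in the sgBap1-Veh pair, 38.8, 28.0 and 31.1 in NTC-CCl4 and 23.3, 35.0 and 32.3 in sgBap1-CCl4 livers. Rrm1 had 12.5 and 13.0 in NTC-Veh, 14.4 and 11.6 in the sgBap1-Veh pair, 44.6, 34.4 and 39.9 in NTC-CCl4 and 36.0, 41.4 and 44.3 CPM in sgBap1-CCl4 livers. In both, treatments were apart and genotypes overlapped. For Rrm2 the log2 fold change was 2.52 (SE 0.27) in NTC and 1.94 (SE 0.26) in sgBap1 livers, and that of Rrm1 was 1.64 (SE 0.14) in each. Tyms, which makes thymidylate, had 7.38 and 7.76 CPM in NTC-Veh, 7.94 and 6.62 in the sgBap1-Veh pair, 18.9, 14.3 and 16.3 in NTC-CCl4 and 13.3, 18.9 and 16.4 in sgBap1-CCl4 livers, and rose by 1.12 and 1.15. Dut, which removes dUTP, rose by 0.54 (SE 0.18, adjusted p = 0.0242) in NTC livers and was at 0.43 (SE 0.17, adjusted p = 0.0569) in sgBap1 livers. Its NTC call was lost without NTC-Veh replicate 2, NTC-CCl4 replicate 1 or NTC-CCl4 replicate 2 (adjusted p = 0.178, 0.0627 and 0.0704), and in sgBap1 livers it passed without NTC-CCl4 replicate 3 or sgBap1-CCl4 replicate 1 (adjusted p = 0.0456 and 0.0245) and with library size alone (0.91, adjusted p = 0.0015).

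Tk1, the thymidine salvage kinase of dividing cells, was not among the genes called higher. It measured 21.6 and 23.7 CPM in NTC-Veh, 36.7 and 24.0 in the sgBap1-Veh pair, 19.9, 17.7 and 16.1 in NTC-CCl4 and 15.1, 20.6 and 18.3 in sgBap1-CCl4 livers. Every CCl4 liver lay below every vehicle liver. The log2 fold change was -0.34 (SE 0.18, adjusted p = 0.141) in NTC and -0.75 (SE 0.18, adjusted p = 0.00519) in sgBap1 livers. With library size alone these were 0.13 and -0.27, and neither was called. The call in sgBap1 livers was also lost without sgBap1-Veh replicate 1 (-0.41, adjusted p = 0.0881), the liver with the highest value. Tk1 overlaps Afmid, a gene of tryptophan breakdown on the other strand, over 83 bases of exon, and Afmid measured 103 to 154 CPM in the vehicle and 12.2 to 19.98 CPM in the CCl4 livers. The part of these reads in Tk1 was not tested.

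The 4 genes of the chromatin behind the fork rose in both genotypes. Uhrf1, which binds hemimethylated DNA and brings in DNMT1, measured 0.653 and 0.499 CPM in NTC-Veh, 2.21 and 1.09 in the sgBap1-Veh pair, 28.9, 22.1 and 25.5 in NTC-CCl4 and 19.7, 24.9 and 28.9 in sgBap1-CCl4 livers. Both sgBap1-Veh livers lay above both NTC-Veh livers and far below the CCl4 livers. With CCl4 the log2 fold change was 5.46 (SE 0.33, adjusted p = 2.21e-06) in NTC and 3.85 (SE 0.28, adjusted p = 4.5e-06) in sgBap1 livers, and 15.4% of its 50-base stretches are shared, most with Gm5648. Dnmt1, the maintenance DNA methyltransferase, had 11.1 and 12.7 CPM in NTC-Veh, 14.0 and 11.2 in the sgBap1-Veh pair, 49.4, 42.7 and 49.8 in NTC-CCl4 and 43.4, 44.7 and 41.0 in sgBap1-CCl4 livers. Chaf1b, a subunit of the chromatin assembly factor, had 2.04 and 1.80 in NTC-Veh, 1.75 and 2.28 in the sgBap1-Veh pair, 8.08, 7.08 and 7.13 in NTC-CCl4 and 6.47, 6.21 and 8.20 CPM in sgBap1-CCl4 livers. Both separated by treatment and not by genotype, with log2 fold changes of 1.99 and 1.77 for Dnmt1 and of 1.95 and 1.80 for Chaf1b. Its partner Chaf1a rose by 3.59 and 2.82, and 4648 bases of its exons overlap Ubxn6 on the other strand.

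Of the E2F factors, the activators E2f1 and E2f2 and the repressor E2f7 rose in both genotypes. E2f1 measured 1.88 and 1.69 CPM in NTC-Veh, 2.29 and 2.21 in the sgBap1-Veh pair, 11.5, 10.9 and 11.3 in NTC-CCl4 and 10.9, 11.9 and 14.8 in sgBap1-CCl4 livers. E2f7 had 0.545 and 0.526 in NTC-Veh, 0.727 and 0.487 in the sgBap1-Veh pair, 2.54, 1.93 and 1.98 in NTC-CCl4 and 1.79, 2.38 and 2.27 CPM in sgBap1-CCl4 livers. Treatments did not overlap in either. The log2 fold change of E2f1 was 2.65 (SE 0.17, adjusted p = 2.14e-06) in NTC and 2.47 (SE 0.16, adjusted p = 2.1e-06) in sgBap1 livers, that of E2f7 2.00 (SE 0.28) and 1.78 (SE 0.28), and that of E2f2 2.93 (SE 0.22) and 2.19 (SE 0.21).

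E2f8, the other repressor, was lowest with sgBap1 and vehicle. It measured 11.8 and 8.40 CPM in NTC-Veh, 2.80 and 3.93 in the sgBap1-Veh pair, 13.3, 6.93 and 10.8 in NTC-CCl4 and 7.37, 7.28 and 9.42 in sgBap1-CCl4 livers. The 2 sgBap1-Veh livers were the lowest of the 10, and the 2 NTC-Veh livers lay within the range of the NTC-CCl4 livers. The log2 fold change with CCl4 was 0.03 (SE 0.27, adjusted p = 0.931) in NTC and 1.26 (SE 0.30, adjusted p = 0.00518) in sgBap1 livers. Without sgBap1-Veh replicate 1 the latter was 1.03 and lost its call (adjusted p = 0.0623). The NTC value ran from -0.06 to 0.51 over the other settings and from -0.20 to 0.30 with a liver left out, so no direction is given for it. The difference of these 2 changes, 1.23 (SE 0.40), had an adjusted p of 0.298. Gm2788, a transcript on the other strand that overlaps 610 bases of E2f8 exon, measured 68.0 and 52.7 CPM in the NTC-Veh livers, while both sgBap1-Veh livers were lower, at 19.2 and 34.1. With CCl4 it had 3.33 to 3.80 CPM in NTC livers and 0.702 to 2.42 in sgBap1 livers. The vehicle order of the groups was thus the same in both transcripts, while with CCl4 Gm2788 was far lower than with vehicle and no fall of E2f8 was called. Its part in the reads of E2f8 was not tested.

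**Figure D4:**
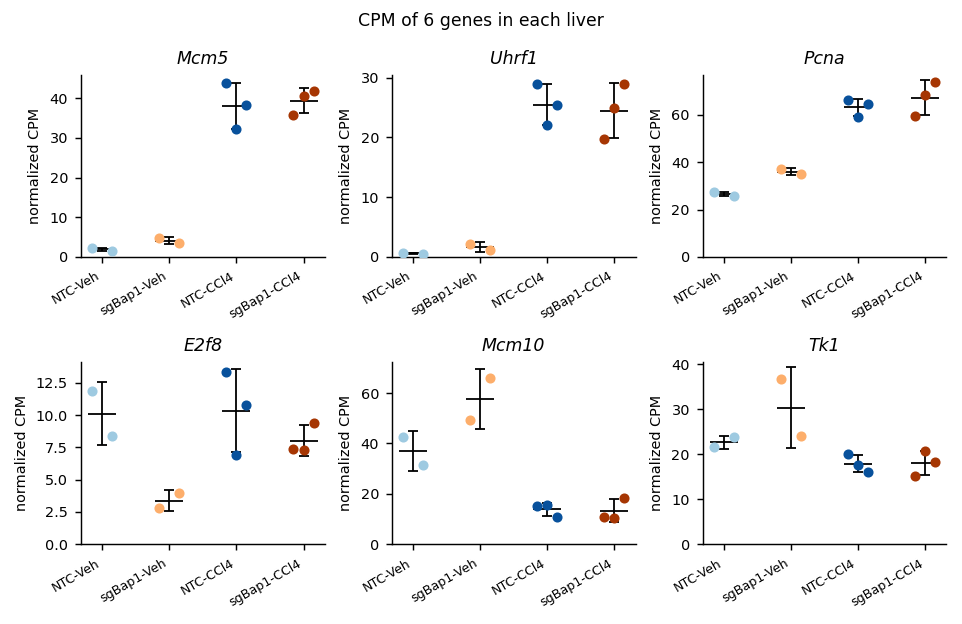
Points give the CPM of Mcm5, Uhrf1, Pcna, E2f8, Mcm10 and Tk1 in each liver by group, and lines give the group mean with its SD (n = 2 for the vehicle and 3 for the CCl4 groups). In Mcm5, Uhrf1 and Pcna the sgBap1-Veh points lie above those of NTC-Veh and the CCl4 groups overlap, E2f8 is lowest in sgBap1-Veh, and Mcm10 and Tk1 are lower with CCl4.

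With vehicle, no member passed the threshold between sgBap1 and NTC livers, where 0.276% of all genes were higher and 0.129% lower by edgeR's quasi-likelihood test. At an unadjusted p under 0.05, 6 were higher (Cdc6, Mcm4, Mcm5, Pole, Pcna and Uhrf1), as were 7.09% of all genes, and E2f8 was lower, as were 5.25%. In either direction this was 15.2% of the 46 against 12.3% of all genes. The log2 fold change was above 0 in 38 of the 46 (82.6%), against 53.4% of all genes, with a median of 0.30 against 0.02. The livers of the groups did not overlap in 22 genes that were higher and 3 that were lower in sgBap1-Veh, where 21.7% and 19.2% of all genes were so. Mcm5 came closest to the threshold, with sgBap1 above NTC by 1.14 on the log2 scale (SE 0.22, adjusted p = 0.0600). E2f8 was at -1.60 (SE 0.32, adjusted p = 0.0732), Uhrf1 at 1.55 (SE 0.38, adjusted p = 0.123) and Pcna at 0.44 (SE 0.11, adjusted p = 0.125). DESeq2's Wald test called Mcm5, Pcna and Uhrf1 higher and E2f8 lower, where it called 2.37% of all genes higher and 0.934% lower. Without a filter on low counts edgeR called Mcm5 (adjusted p = 0.0484), with 0.268% of all genes higher. Over all settings, none leaving out a liver, the adjusted p ran from 0.000439 to 0.237 for Mcm5, from 0.000203 to 0.115 for E2f8, from 0.0021 to 0.288 for Uhrf1 and from 0.0282 to 0.237 for Pcna. Macrophage and lymphocyte markers moved with these genes. Of 11 macrophage markers 11 were above 0 and 2 were called higher, and the 8 lymphocyte markers, none of them called, summed to 4.38 to 9.39 CPM with NTC against 12.3 to 14.0 with sgBap1. No marker of either list was at 0 in any liver. Among other tested markers, 5 of 6 endothelial, 4 of 4 erythroid, 3 of 3 neutrophil and 5 of 7 stellate ones were above 0. So were 2 of 5 cholangiocyte and 2 of 9 hepatocyte markers. None of these was called, and the part of any list in the result was not tested. The sgBap1-Veh replicate 1 had the higher value in 35 of the 46 genes, as in 51.5% of all genes, and without it the median was 0.18.

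With CCl4, no member passed the threshold between sgBap1 and NTC livers, where 0.200% of all genes were higher and 0.129% lower. At an unadjusted p under 0.05 there was E2f2 alone, which was lower, against 6.32% of all genes higher, 7.64% lower and 14.0% in either direction. DESeq2's Wald test called none of the 46, with 1.25% of all genes higher and 1.75% lower. E2f2, which had 0.898 to 1.497 CPM in the 4 vehicle livers, measured 9.87, 7.42 and 8.15 in NTC-CCl4 and 6.71, 6.30 and 5.80 in sgBap1-CCl4 livers. Each sgBap1-CCl4 liver lay below each NTC-CCl4 liver, as in 10.2% of all genes tested. On the log2 scale sgBap1 was at -0.43 relative to NTC (SE 0.15, adjusted p = 0.245). All 46 values lay between -0.43 and 0.19, with a median of -0.04, and 13 of the 46 were above 0, where 50.4% of all genes were. The median was 0.04 without NTC-CCl4 replicate 1, 0.03 without sgBap1-CCl4 replicate 1 and -0.13 without NTC-CCl4 replicate 2, so its sign rests on single livers. Without sgBap1-CCl4 replicate 2, the liver with fat cell markers, it was -0.07 and none of the 46 was called.

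The log2 fold change with CCl4 was lower in sgBap1 than in NTC livers for 42 of the 46 genes, with a median difference of -0.32 on the log2 scale against -0.02 over all genes. Only 8.70% of the 46 were above 0, against 47.6% of all genes. No member passed the threshold, and 0% of all genes did by edgeR's quasi-likelihood test. At an unadjusted p under 0.05 there were 7 lower (Cdc6, Mcm4, Mcm5, Pole, Pcna, Uhrf1 and E2f2) and 1 higher (E2f8), where 6.78% of all genes were lower and 3.59% higher. Together they were 17.4% of the 46 against 10.4% of all genes. Mcm5 was at -1.09 (SE 0.26, adjusted p = 0.146) and Uhrf1 at -1.61 (SE 0.43, adjusted p = 0.192). DESeq2's Wald test called Mcm5 and Uhrf1 lower, where it called 1.84% of all genes lower and 0.641% higher. Over all settings, none leaving out a liver, the adjusted p ran from 0.0121 to 0.180 for Mcm5 and from 0.0113 to 0.281 for Uhrf1. This contrast holds the same vehicle livers as the comparison of genotypes with vehicle, and it is not independent of it. All 11 macrophage markers and all 8 lymphocyte markers were below 0 in it too. So were 5 of 6 endothelial, 4 of 4 erythroid and 2 of 3 neutrophil markers tested. Of the others, 2 of 7 stellate, 2 of 5 cholangiocyte and 1 of 9 hepatocyte markers were below 0. None of these markers was called, and their part was not tested. Without sgBap1-Veh replicate 1 the median was -0.17.

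**Figure D5:**
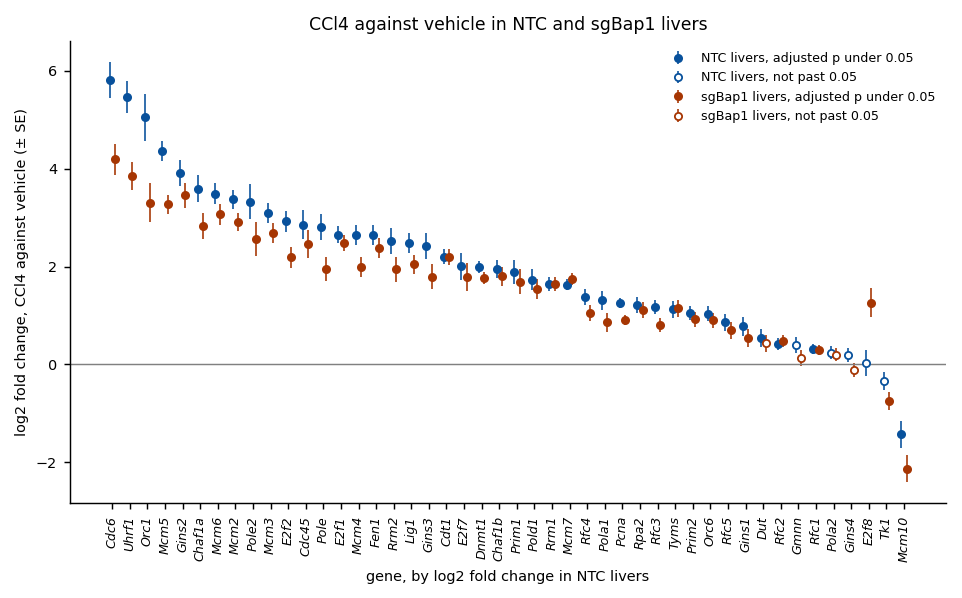
Points give the log2 fold change with CCl4 of each of the 46 genes in NTC and sgBap1 livers, with bars of 1 SE, filled where the adjusted p was under 0.05 and open where it was not. The sgBap1 point lies below the NTC point for 42 of the 46 genes, E2f8 is the one with the larger rise in sgBap1 livers that stands clear, and Mcm10 lies below 0 in both.

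The livers of a group differed in how far the programme had risen. On the log2 scale, the median of the 46 genes relative to NTC-Veh was 0.35 and 0.18 in the sgBap1-Veh livers, 2.05, 1.69 and 1.84 in the NTC-CCl4 livers and 1.61, 1.74 and 1.83 in the sgBap1-CCl4 livers, in replicate order. Of the NTC-CCl4 livers, replicate 1 was the highest in 39 of the 46 genes, where 31.3% of all genes were highest in it. Among the sgBap1-CCl4 livers, replicate 3 was the highest in 36 of the 46, where 36.1% of all genes were. Summed over the 46 genes, the level with CCl4 ran from 771 to 955 CPM for NTC and from 756 to 913 for sgBap1, and these ranges overlap.

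The G2 and mitosis genes, read as the next stage of the cycle, were all higher with CCl4, 20 of 20 in each genotype (27.4% of all genes in NTC and 29.0% in sgBap1 livers), with a median log2 fold change of 5.34 in NTC and 4.67 in sgBap1 livers. Mki67, the proliferation marker, measured 2.78 and 3.21 CPM in NTC-Veh, 5.14 and 4.79 in the sgBap1-Veh pair, 152, 73.9 and 138 in NTC-CCl4 and 107, 138 and 91.0 in sgBap1-CCl4 livers. None of the 20 was called between genotypes with either treatment or in the interaction. At an unadjusted p under 0.05, 2 (vehicle), 0 (CCl4) and 2 (interaction) passed by edgeR, against 12.3%, 14.0% and 10.4% of all genes. With vehicle 19 of the 20 were above 0 (95%, against 53.4% of all genes), with a median of 0.60. With CCl4 10 were (50%, against 50.4%). In the interaction 3 were above 0 (15%, against 47.6%), with a median of -0.57. The shift seen in the 46 genes was thus present in these too. The order of livers was not that of the replication genes everywhere. Replicate 1 of NTC-CCl4 was the highest of its group in all 20, as in 39 of the 46 replication genes, but in sgBap1-CCl4 replicate 2, the liver with fat cell markers, was the highest in all 20, while replicate 3 was the highest in 36 of the 46.

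Of 58 further replication genes, 39 were higher and 7 lower with CCl4 in NTC livers, and 39 higher and 6 lower in sgBap1 livers. Of all genes 27.4% were higher and 26.6% lower in NTC and 29.0% and 28.0% in sgBap1 livers. The 58 genes had median log2 fold changes of 0.86 and 0.66. None was called by edgeR between genotypes or in the interaction, where 11 (vehicle), 3 (CCl4) and 5 (interaction) had an unadjusted p under 0.05. These were 19.0%, 5.17% and 8.62% of the 58, against 12.3%, 14.0% and 10.4% of all genes. Of the 58, 36 (62.1%) were above 0 with vehicle, 19 (32.8%) with CCl4 and 22 (37.9%) in the interaction. Of all genes 53.4%, 50.4% and 47.6% were. The medians of the 58 were 0.04, -0.07 and -0.13 on the log2 scale. The largest rises in NTC livers were those of Clspn, the claspin adaptor of the fork checkpoint (5.06, SE 0.45), Ccna2, the S-phase cyclin A2 (5.06, SE 0.30), and Ticrr, which helps to fire origins (4.98, SE 0.52). Dbf4, the activator of the origin kinase CDC7, rose by 3.29 and 3.33 and Ccne1, cyclin E1, by 3.05 and 2.71. The 7 that fell in NTC livers were Orc3, Orc5, Pold2, Rrm2b, Umps, Tfdp2 and Rbl2. Rbl2, which encodes the pocket protein p130 of quiescent cells, had 43.2 and 47.1 CPM in NTC-Veh, 48.5 and 42.2 in the sgBap1-Veh pair, 23.3, 19.9 and 20.6 in NTC-CCl4 and 21.7, 18.3 and 20.4 in sgBap1-CCl4 livers. The treatments did not overlap, and its log2 fold change was -1.09 (SE 0.11) in NTC and -1.17 (SE 0.11) in sgBap1 livers. Origin subunits thus split on the TMM scale, with Orc1 and Orc6 higher and Orc3 (-0.27 and -0.25) and Orc5 (-0.65 and -0.69) lower. Orc2 and Orc4 had log2 fold changes above 0 in both genotypes.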

How the data were processed

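Bulk RNA-seq of 10 mouse livers was analysed, each mapped to its group by its label. Per the labels and the methods, the libraries were stranded and poly(A)-based and read as pairs of 50 bases. The authors aligned the reads to mm10 with STAR 2.7.6a, quantified genes with Salmon 1.4.0 and deposited unnormalized estimated counts (expected counts) per gene for 55291 genes, of which 9.22% are not whole. The library type set in Salmon is not given in the sources used here.

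Counts were rounded, and edgeR 4.0.16 was run in R 4.3.3 (filterByExpr, TMM, estimateDisp, glmQLFit with robust fitting, 1 model of the 4 groups), and tested on simulated data. The total per liver was 3.30e+07 to 5.22e+07. Each comparison was adjusted by Benjamini-Hochberg over 17015 genes at 0.05. The SE is the log2 fold change divided by the square root of F. Same-numbered livers of different groups had correlations of -0.149 to 0.102 over 13 pairs, 2 over 0.1, so numbers were not taken as pairs. Counts of livers within a group differed by more than counting error (mean chi-square per degree of freedom 32.4 to 63.6). Livers were scaled by their total counts here, without TMM, so differences in composition are included.

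The members and lists were chosen with earlier results of these data known, and no list was tested. Named were 20 listed members, the 3 largest and 3 smallest changes with CCl4 in NTC livers, and any member called between genotypes, of which there was none. Other members are given by range, or named where they stand apart. Gm2788 and the other named genes outside the 46 were chosen after their values were seen. Alternatives were DESeq2 1.42.0 (the tool of the study's methods), its size factors, library size alone, other filters, the edgeR 3 method, 2 groups at a time, a replicate block and each liver left out. Exon lengths, overlaps and shared 50-base stretches are from GENCODE vM21, promoters from RefSeq GRCm38.p6. Figures were drawn with matplotlib 3.10.9.

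Marker lists not given above summed, from the lowest to the highest liver, as follows for vehicle (NTC, then sgBap1) and then CCl4 (NTC, then sgBap1). Endothelial markers were at 149 to 159.9, 153 to 213, 197 to 243 and 204 to 239 CPM. Stellate markers were at 226 to 271, 264 to 293, 436 to 544 and 428 to 930.1 CPM. Cholangiocyte markers were at 43.2 to 51.4, 43.4 to 49.3, 192 to 248 and 272 to 369.9 CPM. Neutrophil markers were at 2.97 to 5.66, 4.75 to 5.44, 13.3 to 17.7 and 12.9 to 19.6 CPM. Erythroid markers were at 144 to 223, 187 to 208, 219 to 648 and 198 to 264 CPM. Lymphocyte markers were at 10.4 to 14.9 CPM in NTC-CCl4 and 9.64 to 12.2 CPM in sgBap1-CCl4 livers.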

Additional observations from a re-analysis of the deposited data

How the results depend on the processing

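Over the settings that keep all livers, 39 to 43 members were called higher with CCl4 in NTC and 38 to 44 in sgBap1 livers, and with a liver left out 36 to 41 in each. With library size alone, which took the share of higher genes among all calls from 50.8% to 80.5% in NTC and from 51.0% to 78.3% in sgBap1 livers, the median log2 fold change was 2.39 in NTC and 2.23 in sgBap1 livers and 1 member was lower in sgBap1 livers. With only the 2 groups in the fit, 2 members were lower in NTC livers, Tk1 being the other (adjusted p = 0.0348, over settings 0.0348 to 0.611). DESeq2's Wald test gave 3 higher and 1 lower in vehicle-treated livers and 2 lower in the interaction, and edgeR without a filter gave 1 higher in vehicle-treated livers (Mcm5, adjusted p = 0.0484), where the fit reported gave 0. The cause of these differences was not tested. With a liver left out, the NTC median was 1.78 to 2.02, the interaction median -0.41 to -0.17, and 1 to 2 members were lower with CCl4 in sgBap1 livers. The replicate block, entered although the numbers do not pair the livers, left 39 higher in NTC and 38 in sgBap1 livers, with Rfc1 lost in both (adjusted p = 0.0523 and 0.0644) and Gins1 in sgBap1 livers (0.0651). No called member changed sign under any alternative.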
